A study of Mus musculus with 18 samples.

Results

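Neurexins, neuroligins and dystroglycan are cell surface proteins that join synapses, astrocytes and extracellular matrix. The set held 6 genes picked by name from the 51912 genes counted, namely *Nlgn1*, *Nlgn2*, *Nlgn3*, *Nrxn2*, *Nrxn3* and *Dag1*. They were picked with earlier results of these data known, so their values are a description and how many of them changed is not independent evidence of a direction. All 6 passed the filter of 10 read pairs summed over 18 libraries, which left 24495 genes to test.

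The values came from primary cortical astrocytes of postnatal day 0 mice carrying the Aldh1l1-EGFP/Rpl10a transgene, in which an astrocyte promoter drives an EGFP-tagged ribosomal protein. Every culture, control included, carried the transgene, was grown in serum for 14 days, replated for 6 days and kept without serum for 24 h. Dishes then received 50 mM ethanol or control serum-free medium for a further 24 h. In translating ribosome affinity purification (TRAP), mRNA bound to the tagged ribosomes is pulled down as the IP fraction. Input is RNA of the lysate before the pull-down, after insoluble debris was removed by centrifugation. Sequenced libraries were 6 IP control, 6 IP ethanol, 3 input control and 3 input ethanol, the inputs being aliquots of the dishes of IP replicates 4 to 6. The cultures were pooled from male and female pups, and which pups went into which dish is not given in the sources used here, so p-values measure the spread between dishes. Bulk RNA cannot tell fewer cells of a type from less RNA per cell.

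Neurexins sit mainly on presynaptic membranes, where their extracellular LNS domains bind partners across the cleft. Neuroligins are the classical partners, and astrocytes carry neuroligins of their own that touch neuronal neurexins and shape the fine processes of the cell. Dystroglycan, the product of *Dag1*, also binds neurexins as well as laminin, agrin and perlecan, through sugar chains on its alpha subunit, and it anchors the dystrophin complex at astrocyte endfeet.

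Between 74239854 and 132810705 read pairs were counted on genes in each library. No library was a copy of another of its group, since even the most similar, IP control replicates 5 and 6, had a chi-square of 3.87 per degree of freedom, where sampling alone gives about 1. *Aldh1l1*, whose promoter drives the tag, was higher in IP than in input at 375 ± 15 and 181 ± 9.9 CPM (TMM-scaled read counts, mean ± SD, n = 12 and 6). Neuronal *Rbfox3*, *Snap25* and *Nefl* were below 1 CPM on average in both fractions, as were the oligodendrocyte genes *Sox10* and *Mog*, and endothelial *Cldn5* had too few reads to be tested. Other genes of these lists were well above that level, and the neuron and oligodendrocyte lineage lists summed to 194 to 205 and 161 to 184 CPM in input, mostly from *Stmn2*, *Map2* and *Tubb3* and from *Olig1*.

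The 6 genes differ greatly in size (GRCm38, GENCODE M21). *Nlgn2* (ENSMUSG00000051790), a neuroligin of inhibitory synapses, spans 14.7 kb at chr11:69823122-69837784, and *Dag1* (ENSMUSG00000039952) spans 59.3 kb at chr9:108204634-108263958, both on the minus strand. *Nlgn1* (ENSMUSG00000063887), known from excitatory synapses, covers 906 kb at chr3:25426215-26332460 on the minus strand. *Nlgn3* (ENSMUSG00000031302), found at both kinds of synapse, lies at chrX:101299168-101325963 on the plus strand. *Nrxn2* (ENSMUSG00000033768) lies at chr19:6418731-6544169 and *Nrxn3* (ENSMUSG00000066392), the longest at 1612 kb, at chr12:88722876-90334935, both on the plus strand. Counts were summed over the exons of all transcripts of a gene, so the long alpha and short beta neurexins, which start from separate promoters, are not told apart.

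RefSeq promoter windows (GRCm38.p6) were found for *Nlgn1*, *Nlgn2*, *Nrxn3* and *Dag1*, which span the range of expression in the set, and the first window of each is shown for that reason. Each line gives the 250 bases before a RefSeq transcript start, 5′ to 3′ in the direction of the gene. For *Nlgn2* and *Dag1* that start is where the GENCODE gene begins. For *Nlgn1* it lies 551 bases and for *Nrxn3* 71628 bases inside the gene as GENCODE draws it. These 2 windows thus precede internal starts, and whether they act as promoters was not tested. Capitals mark GGGCGG, the GC box, which was searched on both strands.
Nlgn2 promoter (chr11:69837785-69838034, minus strand): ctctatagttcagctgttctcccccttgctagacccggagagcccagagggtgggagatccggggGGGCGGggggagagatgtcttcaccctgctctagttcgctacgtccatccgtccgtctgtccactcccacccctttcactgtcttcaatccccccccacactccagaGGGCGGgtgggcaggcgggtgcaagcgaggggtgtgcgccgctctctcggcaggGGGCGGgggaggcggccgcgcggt
Dag1 promoter (chr9:108263959-108264208, minus strand): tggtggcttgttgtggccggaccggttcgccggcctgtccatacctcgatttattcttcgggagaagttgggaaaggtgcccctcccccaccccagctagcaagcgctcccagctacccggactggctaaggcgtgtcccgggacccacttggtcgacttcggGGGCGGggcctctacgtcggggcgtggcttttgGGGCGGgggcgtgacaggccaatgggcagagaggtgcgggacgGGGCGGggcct
Nlgn1 promoter (chr3:26331910-26332159, minus strand): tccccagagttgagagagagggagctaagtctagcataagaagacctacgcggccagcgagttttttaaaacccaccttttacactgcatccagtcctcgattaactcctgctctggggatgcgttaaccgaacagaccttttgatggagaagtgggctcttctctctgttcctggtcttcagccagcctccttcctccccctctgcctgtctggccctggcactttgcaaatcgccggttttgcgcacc
Nrxn3 promoter (chr12:88794254-88794503, plus strand): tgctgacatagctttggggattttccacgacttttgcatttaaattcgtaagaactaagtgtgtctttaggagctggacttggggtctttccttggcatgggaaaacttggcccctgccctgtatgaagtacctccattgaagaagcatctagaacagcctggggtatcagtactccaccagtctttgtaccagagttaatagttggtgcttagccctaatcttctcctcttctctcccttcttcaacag
*Nlgn2* and *Dag1* each held 3 GC boxes in 250 bases with a GC content of 67.6%. No GC box lay in either window of *Nlgn1* or in any of the 3 windows of *Nrxn3*, whose first windows had a GC content of 53.6% and 45.6%. The windows not shown were at 43.6% for *Nlgn1*, 46.8% and 60.0% for *Nrxn3* and 74.8% for *Dag1*. Of the 32851 RefSeq windows of this length, 32.7% held the motif, and the median GC content was 52.4%. The letters CACGTG (6.02% of all windows), TATAAA (12.4%) and TGACGTCA (1.55%), searched in the same way on both strands, were in none of the windows of these 4 genes and so overlapped no GC box.

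Per kilobase of the longest transcript (RPKM), *Dag1* was the best expressed of the set in every group and *Nrxn3* the least. In IP control libraries *Dag1* stood at 153.01 ± 2.2 RPKM and *Nlgn2* at 30.1 ± 1.0 (mean ± SD, n = 6). *Nrxn2* followed at 10.4 ± 0.13 RPKM, *Nlgn1* at 1.23 ± 0.054, *Nlgn3* at 0.896 ± 0.051 and *Nrxn3* at 0.382 ± 0.030. Per kb of all exons of the gene, *Nrxn2* was at 5.01 and *Nrxn3* at 0.240 in IP control. By the longest transcript the order was the same in all 4 groups, and no library of a gene reached the range of its neighbour in the order within a group. The step from *Nlgn1* to *Nlgn3* in IP control was the smallest, at 1.37 times.

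**Figure D1:**
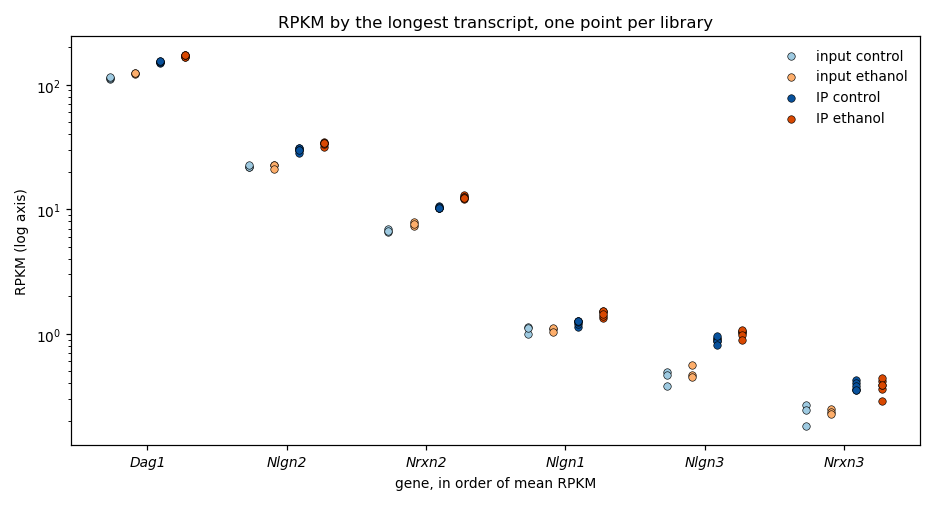
Levels of the 6 genes in each of the 18 libraries, as RPKM on a log axis, with a point per library coloured by group. *Dag1* sits between 112 and 174 RPKM, *Nrxn3* between 0.181 and 0.441, and the order of the genes is the same in each group.

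*Nlgn2* made up 93.4% ± 0.29 of the RPKM of the 3 neuroligins in IP control and 93.5% ± 0.51 in input control libraries (SD, n = 6 and 3). *Nlgn3* supplied 2.78% ± 0.12 of the neuroligin RPKM in IP control and 1.89% ± 0.23 in input control. The deposited counts ignore strand and leave out pairs that touch exons of more than 1 gene. *Nrxn2* had 1.25 times as many pairs when only its own strand was counted, since it overlaps *Gm14964* and *Slc22a12* on the other strand. Of the exon bases of *Nlgn3*, 41.2% are shared with the same-strand gene *Gm21986*, and read pairs there could not be assigned. When RPKM was taken per exon base not shared with another gene, an alternative chosen after the data were seen, *Nlgn3* averaged 1.49 RPKM in IP (1.40 in IP control) and *Nlgn1* 1.30, while in input *Nlgn1* stayed ahead at 1.05 beside 0.737 for *Nlgn3*. The order of these genes in IP thus rests on the length used.

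The first comparison asked which mRNAs were richer on astrocyte ribosomes than in the lysate. All 6 genes were higher in IP than in input, from 1.23-fold for *Nlgn1* to 2.02-fold for *Nlgn3*. Of all genes tested, 51.0% passed an adjusted p of 0.05 in this comparison (25.2% higher in IP and 25.8% lower), with edgeR's quasi-likelihood test over 18 libraries and Benjamini-Hochberg adjustment. The median log2 fold change was 0.59 over the 6 genes and -0.03 over all genes tested.

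*Nlgn3* was at 3.26, 4.23 and 3.98 CPM in input control replicates 4 to 6 and at 4.77, 4.03 and 3.81 in input ethanol replicates 4 to 6. In IP it ran from 6.98 through a median of 7.65 to 8.23 CPM in control and from 7.57 through 8.68 to 9.19 in ethanol libraries. Every IP library thus lay above every input library, and the log2 fold change was 1.01 (SE 0.055, adjusted p = 7.15e-27). Only 0.111% of the 13453 genes with a mean over 1 CPM had a larger rise in IP.

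*Nlgn2*, by far the best expressed neuroligin, read 121, 121 and 127 CPM in input control and 126, 125 and 118 in input ethanol replicates 4 to 6. Its IP libraries held 158 to 175 CPM in control (median 166.8) and 177 to 193 in ethanol (median 189). The fractions did not overlap, and IP exceeded input by 0.52 on the log2 scale (SE 0.025, adjusted p = 6.84e-21). *Nlgn1* was the exception to clean separation. Its input libraries held 11.8, 13.5 and 13.1 CPM in control and 13.0, 13.2 and 12.3 in ethanol replicates 4 to 6. IP control libraries ran from 13.4 to 15.1 CPM (median 14.7) and so began below the highest input library, while IP ethanol libraries ran from 15.8 to 18.2 (median 17.4). The log2 fold change of *Nlgn1* was 0.30 (SE 0.040, adjusted p = 1.38e-09), and against a fold change of 1.2 it no longer passed (adjusted p = 0.225).

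*Nrxn2* was counted at 44.2, 46.1 and 44.6 CPM in input control and at 52.9, 49.1 and 51.3 in input ethanol replicates 4 to 6. In IP control it lay within 68.6 to 70.8 CPM (median 68.8) and in IP ethanol within 80.4 to 86.4 (median 83.0). All 4 groups of *Nrxn2* were apart from each other, and IP exceeded input by 0.66 on the log2 scale (SE 0.023, adjusted p = 2.13e-38). *Nrxn3* was sparse, with 139 to 433 read pairs a library. Its values were 2.12, 1.44 and 1.94 CPM in input control and 1.98, 1.85 and 1.81 in input ethanol replicates 4 to 6, against 2.82 to 3.40 in IP control (median 2.96) and 2.27 to 3.50 in IP ethanol (median 3.07). The fractions were still apart, IP being higher by 0.70 on the log2 scale (SE 0.082, adjusted p = 1.00e-11).

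*Dag1* gave 632, 643 and 651 CPM in input control and 685, 707 and 709 in input ethanol replicates 4 to 6. IP control libraries spanned 849 to 882 CPM (median 864) and IP ethanol libraries 949.9 to 986 (median 966). As for *Nrxn2*, no group of libraries overlapped another, and the log2 fold change of IP over input was 0.45 (SE 0.018, adjusted p = 5.56e-35). Fractions free of overlap, with IP higher, were found for 5 of the 6 genes and for 13.1% of all genes tested (25.0% in either direction).

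**Figure D2:**
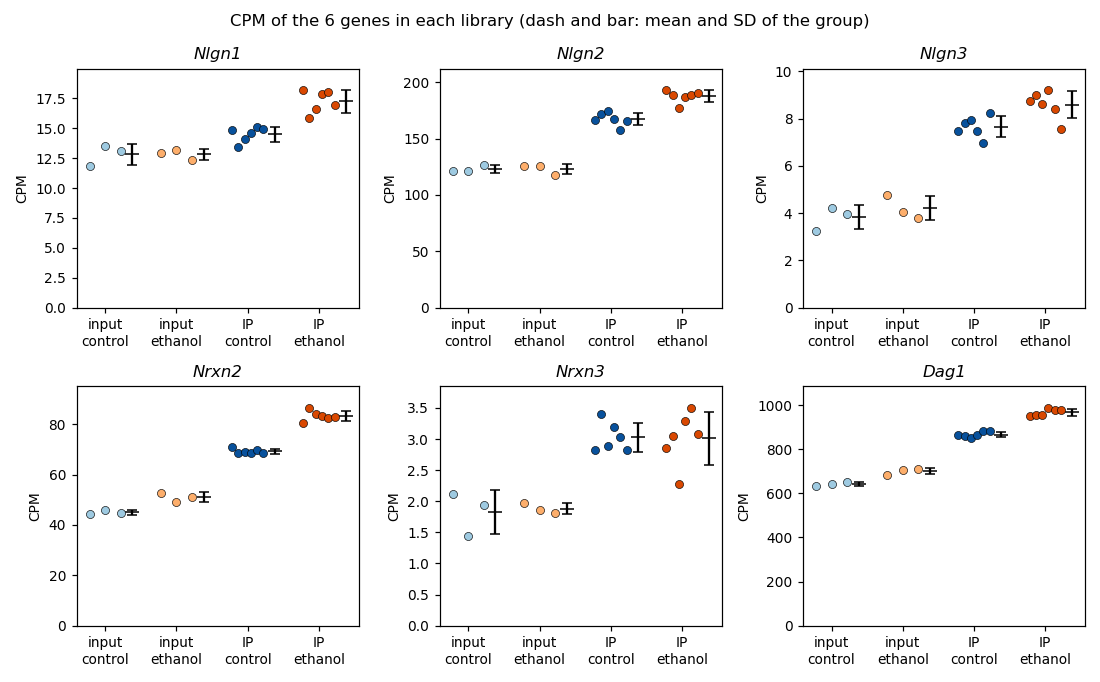
CPM of the 6 genes, with a panel per gene starting at 0, a point per library and a dash with a bar for the mean and SD of each group (n = 3 input and 6 IP libraries per treatment). IP libraries sit above input libraries for every gene except that *Nlgn1* IP control starts at 13.4, below the highest input value of 13.5.

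Markers of other cells moved with the fraction. Of 10 astrocyte markers 8 were higher in IP and *S100b* was lower, and their summed level ranged from 1167 to 1247 CPM in input and from 1799 to 2000 in IP libraries. Of 7 microglia markers 6 were lower in IP, with sums of 53.8 to 67.1 CPM in input and 8.91 to 12.02 in IP. Of 5 fibroblast markers 4 were lower, with sums of 216 to 222 CPM in input and 99.9 to 118 in IP. Neuron markers, of which 5 of 10 were higher in IP and 2 lower, summed to 194 to 205 CPM in input and 232 to 251 in IP, mostly from *Stmn2*, *Map2* and *Tubb3*. In the oligodendrocyte lineage list 4 of 8 were higher and 3 lower, with sums of 161 to 184 CPM in input and 250 to 289 in IP, and *Olig1* held most of it. Endothelial and mural markers, 1 of 5 higher and 2 lower, summed to 136 to 141 CPM in input and 92.3 to 103 in IP. The part of these cells in the differences between fractions was not tested.

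The next comparison asked what ethanol changed on astrocyte ribosomes. In IP, 5 of the 6 genes were upregulated by ethanol, by 12.2% to 20.8%, and *Nrxn3* was not. Among all genes tested 21.4% passed (11.9% upward and 9.48% downward), and the median log2 fold change was 0.17 over the 6 genes and 0.01 over all genes. In 4 of the 6 genes, and in 5.09% of all genes tested, every ethanol library lay above every control library (9.96% in either direction).

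*Nrxn2* changed most, by 0.27 on the log2 scale (SE 0.026, adjusted p = 6.18e-13), and *Nlgn1* by 0.26 (SE 0.042, adjusted p = 1.97e-06). A larger rise was found for 2.91% and 3.32% of the genes over 1 CPM, respectively. *Nlgn2* rose by 0.17 (SE 0.025, adjusted p = 2.48e-07) and *Dag1* likewise by 0.17 (SE 0.022, adjusted p = 1.35e-08), both without overlap between the treatments. *Nlgn3* rose by 0.18 with a wider error (SE 0.053, adjusted p = 0.00983), and its ethanol replicate 6, at 7.57 CPM, lay within the control range. With the effect of *Nrxn3* at -0.00 (SE 0.084, adjusted p = 0.99), the 95% interval of its change was -0.17 to 0.16.

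A fit with the trends of GC and of transcript length taken out of each library bears on *Nrxn2* and *Nlgn2*, whose longest transcripts are 62.4% and 60.7% GC. *Nrxn2* then rose by 0.16 (adjusted p = 1.42e-08) and *Nlgn2* by 0.08 (adjusted p = 0.00325), while *Nlgn3* no longer passed at 0.13 (adjusted p = 0.0587). The largest rise of the set in this fit was that of *Nlgn1*, at 0.22 (adjusted p = 8.14e-06). In IP replicates 1 to 3 or 4 to 6 alone, *Nlgn3* also missed the threshold (adjusted p = 0.101 and 0.140). None of the 5 rises passed a test against a fold change of 1.2.

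**Figure D3:**
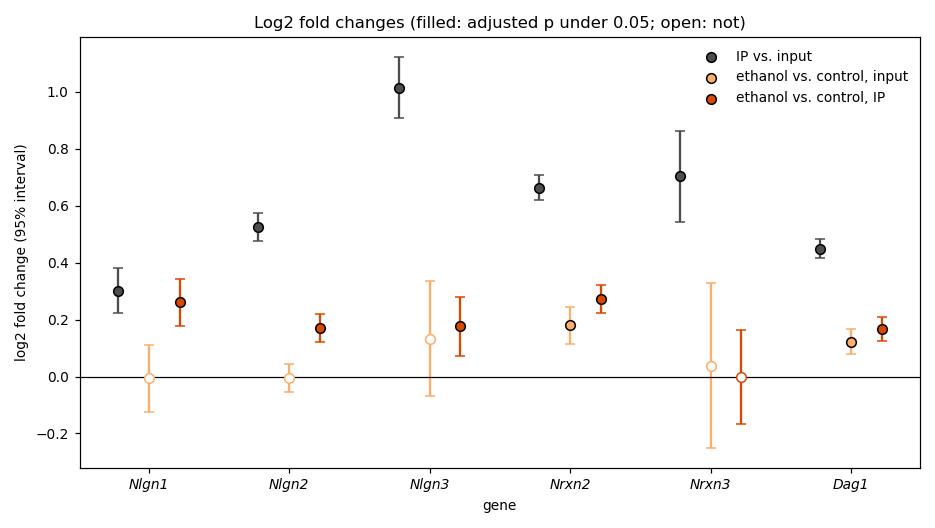
Log2 fold changes of the 6 genes with their 95% intervals for IP vs. input, ethanol in input and ethanol in IP, with filled points where the adjusted p was under 0.05. IP vs. input runs from 0.30 for *Nlgn1* to 1.01 for *Nlgn3*, and in input the ethanol points of *Nlgn1* and *Nlgn2* lie at -0.01 and -0.00.

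Input holds RNA from all cells of the dish and not from astrocytes alone. There 2 of the 6 genes, *Nrxn2* and *Dag1*, were upregulated by ethanol, beside 15.0% of all genes tested that changed (7.21% upward and 7.78% downward). *Nrxn2* rose by 0.18 (SE 0.034, adjusted p = 3.59e-06) and *Dag1* by 0.12 (SE 0.022, adjusted p = 1.23e-06). In both, all 3 ethanol libraries lay above all 3 control libraries, as in 14.0% of all genes tested (27.1% in either direction). No neuroligin passed in input, nor did *Nrxn3*. *Nlgn2* averaged 123 ± 3.3 CPM in control and 123 ± 4.4 in ethanol (SD, n = 3 each), with a 95% interval of -0.05 to 0.04 on the log2 scale. *Nlgn1* was at 12.8 ± 0.87 and 12.8 ± 0.45 CPM, with an interval of -0.12 to 0.11. For the sparse *Nlgn3* and *Nrxn3* the intervals were wide, -0.07 to 0.33 and -0.25 to 0.33. Neither of the 2 rises in input passed a test against a fold change of 1.2.

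A fraction by treatment interaction tested whether the ethanol effect differed between IP and input. In all 18 libraries, 0 of the 24495 genes (0.0%) passed with edgeR, 1459 had an unadjusted p under 0.05, and DESeq2 called 2. The ethanol effect of *Nlgn1* was 0.25 higher in IP than in input on the log2 scale (SE 0.074, unadjusted p = 0.00098, adjusted p = 0.675) and that of *Nlgn2* 0.16 higher (SE 0.041, unadjusted p = 0.000158, adjusted p = 0.675). For *Nrxn2* the difference was 0.08 (SE 0.043), for *Dag1* and *Nlgn3* 0.03 (SE 0.034 and 0.11) and for *Nrxn3* -0.05 (SE 0.16).

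Because input and IP of replicates 4 to 6 came from the same dishes, the ratio of IP to input could be taken within a dish. For *Nlgn2* it was 1.38, 1.30 and 1.31 in control dishes and 1.48, 1.505 and 1.62 in ethanol dishes 4 to 6. For *Nlgn1* it was 1.23, 1.117 and 1.14 in control and 1.38, 1.37 and 1.38 in ethanol dishes. The ethanol dishes were higher without overlap for both genes, as they were for *Nrxn2* (1.51 to 1.55 in control, 1.57 to 1.68 in ethanol) and *Dag1* (1.35 to 1.37 and 1.38 to 1.44). Among the 18704 genes with reads in all 12 libraries, 6.82% had ethanol dishes higher without overlap (13.7% in either direction), and 7.7% of those averaging 1 CPM or more. An exact two-sided permutation test gave p = 0.1 for each of these 4 genes, unadjusted over the 6 genes, which is the smallest p that 3 dishes against 3 allow. Ratios overlapped for *Nlgn3*, 1.65 to 2.30 in control and 1.93 to 2.09 in ethanol dishes, and for *Nrxn3*, 1.46 to 2.11 and 1.66 to 1.89.

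**Figure D4:**
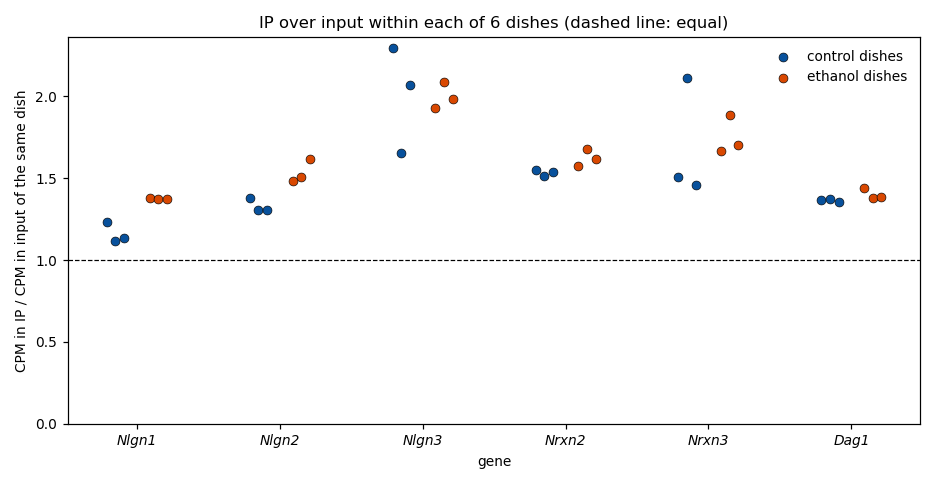
CPM in IP divided by CPM in input of the same dish for the 6 genes, with a point for each of 3 control and 3 ethanol dishes and a dashed line at equality. Ethanol dishes lie above control dishes without overlap for *Nlgn1*, *Nlgn2*, *Nrxn2* and *Dag1*, and overlap them for *Nlgn3* and *Nrxn3*.

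In a fit of those 12 libraries by dish, the ethanol effect on *Nlgn2* was 0.22 higher in IP than in input (SE 0.037, adjusted p = 9.31e-06), and 102 genes passed (0.416% of those tested). *Nlgn2* was the only gene of the set among them. The same 12 libraries without the dish term, a fit added after the data were seen, called 13 genes (0.0531%), again with *Nlgn2*, at 0.22 (SE 0.041, adjusted p = 0.00564), so that the call came with the choice of libraries and did not need the dish term. The value for *Nlgn1* was larger but less precise, 0.26 (SE 0.080, adjusted p = 0.120). When the GC and transcript length trends were taken out as well, 37 genes passed (0.151%), and *Nlgn2* remained at 0.15 (adjusted p = 0.00684). For *Nrxn2* the difference was 0.10 in the fit by dish and 0.01 with these trends taken out, called in neither. Within IP, the ethanol effect on *Nlgn2* was 0.20 in replicates 4 to 6 and 0.13 in replicates 1 to 3. Only replicates 4 to 6 are in these 12 libraries.

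Astrocyte markers summed to 1799 to 1880 CPM in IP control and 1926 to 2000 in IP ethanol libraries, with 4 of 10 higher and none lower, and to 1167 to 1212 and 1222 to 1247 in input. Microglia markers were at 8.93 to 9.88 CPM in IP control and 8.91 to 12.02 in IP ethanol, where 1 of 7, *Csf1r*, was higher. Oligodendrocyte lineage markers summed to 271 to 289 CPM in IP control and 250 to 272 in IP ethanol, with 2 of 8 higher and 1, *Olig1*, lower. Of 10 neuron markers *Syn1* was higher in IP ethanol, *Stmn2* and *Gap43* were lower, and the sums were 236 to 251 CPM in control and 232 to 251 in ethanol. In input, 4 astrocyte markers were higher with ethanol and 3 lower, microglia markers went from 53.8 to 57.0 CPM in control to 56.3 to 67.1 in ethanol with *Csf1r* higher, and oligodendrocyte lineage markers from 164.9 to 184.3 in control to 160.6 to 166.5 in ethanol, with 3 higher and 1 lower. Neuron markers in input, 3 higher and 2 lower, summed to 200.3 to 203 CPM in control and 194 to 205 in ethanol. No fibroblast, endothelial or mural marker passed in either fraction. The part of these shifts in the ethanol differences was not tested.

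The known partners of the 6 genes were counted in lists written from general knowledge, but with earlier results of these data known. Their counts are thus a description beside the shares of all genes, and not independent evidence. Of 26 tested neurexin ligands and neuroligin regulators, 9 rose and 1 fell with ethanol in IP, and 6 rose and none fell in input. Of all genes tested, 11.9% rose and 9.48% fell in IP, and 7.21% rose and 7.78% fell in input. The median log2 fold change of this list was 0.09 in IP and 0.08 in input, where that of all genes tested was 0.01 and -0.00. *Mdga1*, which binds neuroligins and blocks neurexin binding, rose in both fractions, by 0.44 in IP (13.2 ± 0.64 to 17.8 ± 0.67 CPM, adjusted p = 1.02e-12) and by 0.41 in input (adjusted p = 3.98e-09). *Adgrl3*, a latrophilin, went up by 0.38 in IP (adjusted p = 0.000222) and by 0.36 in input (adjusted p = 1.93e-07). *Nxph1*, a secreted ligand of alpha neurexins, was higher by 0.53 in input (1.78 ± 0.053 to 2.58 ± 0.14 CPM, adjusted p = 0.00143). The list also counts *Flrt2* and *Flrt3*, which are ligands of latrophilins, not of neurexins. The decrease was in *Flrt3*, which fell by 0.10 in IP (adjusted p = 0.0289).

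Between fractions, 13 of these 26 genes were higher in IP and 4 lower, with a median of 0.22, beside 25.2% higher, 25.8% lower and a median of -0.03 for all genes tested. *Clstn2*, a calsyntenin, led with a log2 fold change of 1.15 (1.88 ± 0.32 CPM in input, 4.17 ± 0.37 in IP), followed by *Lrrtm1*, a leucine-rich neurexin ligand, at 0.71. *Flrt2* and *Lrrtm2* were lower in IP, at -0.48 and -0.39.

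Among 21 cytoplasmic partners, the PDZ and scaffold proteins that hold these receptors, 15 were higher in IP than input and 1, *Lin7c*, lower at -0.13 (25.2% and 25.8% of all genes tested). *Apba2*, a Mint adaptor, was at 0.89 and the scaffold *Shank1* at 0.75. With ethanol 7 rose and 1 fell in IP (11.9% and 9.48% of all genes), and 2 rose and 1 fell in input (7.21% and 7.78%). Medians of this list were 0.27 for IP over input, 0.03 for ethanol in IP and 0.04 in input, where those of all genes were -0.03, 0.01 and -0.00. *Shank1* rose by 0.30 and *Shank3* by 0.21 in IP (adjusted p = 0.0108 and 0.0126). In input the rises were in *Magi2*, at 0.15, and *Dlg4*, which encodes PSD-95, at 0.10. *Magi2* and *Dlg4* also rose in IP, by 0.15 and 0.17. The decrease was in *Epb41l2*, a cytoskeletal linker of the protein 4.1 family, at -0.11 in IP and -0.14 in input.

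In the dystrophin complex that dystroglycan anchors, 5 of 17 genes rose with ethanol in IP, 6 rose in input and none fell in either, beside 11.9% and 7.21% of all genes that rose. The list's medians, 0.02 and -0.00, were close to the 0.01 and -0.00 of all genes tested. The endfoot water channel *Aqp4* rose by 0.25 in IP (261 ± 6.3 to 309 ± 11 CPM, adjusted p = 1.77e-12) and by 0.16 in input (adjusted p = 1.45e-09), and *Dtnb*, a dystrobrevin, by 0.16 and 0.13. *Kcnj10*, the endfoot potassium channel, was at 0.90 in IP over input, with a log2 change of -0.04 under ethanol in IP (adjusted p = 0.53). Across fractions (median 0.19, all genes -0.03) 9 were higher in IP and 2 lower, *Utrn* at -0.27 and *Sgca* at -0.17, beside 25.2% and 25.8% of all genes tested.

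Of 10 ligands of dystroglycan, 3 rose with ethanol in IP (11.9% of all genes), among them agrin (*Agrn*, 0.14) and *Lama5* (0.13). In input none rose and perlecan, *Hspg2*, fell by 0.08 (adjusted p = 0.00674), where 7.21% of all genes rose and 7.78% fell. The list's median was 0.09 with ethanol in IP, 0.02 in input and 0.28 for IP over input. Fractions differed for 8 of the 10 (51% of all genes tested). In IP 6 were higher (25.2% of all genes), led by *Slit3* at 0.72 and *Lama5* at 0.64. *Lama4* at -0.56 and *Slit2* at -0.45 were lower (25.8% of all genes).

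The enzymes that build the ligand-binding sugar chain of dystroglycan moved in both directions. Of 16, 6 rose and 4 fell with ethanol in IP, and 4 rose and 1 fell in input, around medians of 0.05 and 0.03 (all genes 0.01 and -0.00, with the shares of calls given for the first list). *B4gat1*, which primes that chain, rose by 0.20 in IP (94.3 ± 0.91 to 108 ± 3.4 CPM, adjusted p = 4.65e-09) and by 0.22 in input (adjusted p = 1.11e-14), and *Pomgnt2* rose by 0.15 in IP. *B3galnt2* rose by 0.14 in input. *Dpm1*, of dolichol phosphate mannose synthase, fell by 0.29 in IP, and *Gmppb*, which makes GDP-mannose, by 0.16 in IP and by 0.19 in input. Between fractions the median was 0.07 (all genes -0.03). Of the 16, 9 were higher in IP (25.2% of all genes), with *Pomgnt2* at 0.19 and *Gmppb* at 0.18. Another 5 were lower (25.8% of all genes), with *Dpm2* at -0.38 and *Dpm3* at -0.24.

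Of 8 proteases and protease subunits that act on the outer parts of these proteins or their stubs, 5 rose and 1 fell with ethanol in IP (11.9% and 9.48% of all genes). In input 3 rose and 1 fell (7.21% and 7.78%). The medians were 0.09 in IP and 0.02 in input (all genes 0.01 and -0.00). The sheddase *Adam17* rose by 0.21 in IP and 0.14 in input, *Mmp14* by 0.12 in IP and *Mmp2* by 0.10 in input. *Aph1a*, a gamma-secretase subunit, fell by 0.08 in IP. *Mmp9*, which cleaves neuroligin-1 and beta-dystroglycan, fell by 0.53 in input (14.5 ± 0.93 to 10.1 ± 1.3 CPM, adjusted p = 2.43e-15), and its IP level, 4.14 ± 0.41 CPM, was lower than that of input, 12.3 ± 2.6. *Mmp2* was likewise lower in IP at -1.26, and *Mmp14* and *Adam17* higher at 0.25 and 0.16. Between fractions 4 of the 8 were thus higher and 4 lower (25.2% and 25.8% of all genes tested), with a median of -0.01.

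**Figure D5:**
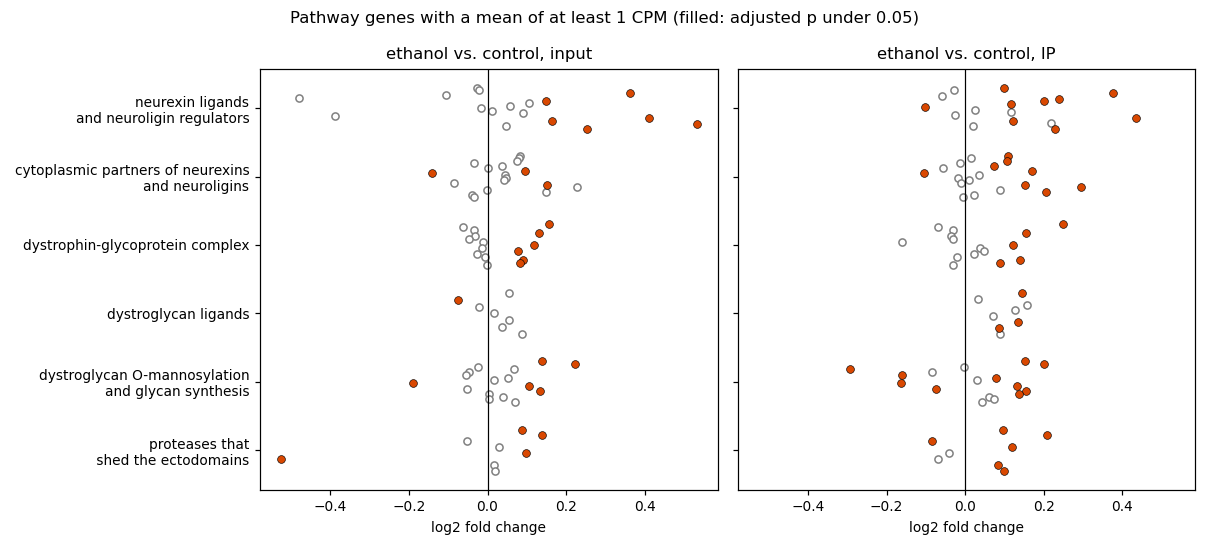
Log2 fold changes with ethanol in input (left) and in IP (right) of the genes of the 6 partner lists that reached 1 CPM on average in control or ethanol libraries, filled where the adjusted p was under 0.05. The highest point in IP is *Mdga1* at 0.44 and the lowest in input *Mmp9* at -0.53.

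For each gene of the set, the genes whose log2 CPM followed it most closely over the 18 libraries were sought among 11066 genes averaging 5 CPM or more, as a description in which fraction, treatment and shared dishes all take part. *Dag1* ran closest to *Sort1* and *Grid1*, with Pearson's r of 0.997 and 0.995. For *Nrxn2* these were *Mapk10* and *Nfasc* (r = 0.99 each), for *Nlgn2* *Dlg5* and *Zc3h7b* (0.99 each) and for *Nlgn3* *Psd* and *Kcna6* (0.99 each). *Nlgn1* was closest to *2610507B11Rik* (0.96) and *Kdm3b* (0.94), and *Nrxn3* to *Recql* (0.95) and *Aldh6a1* (0.94). Among the genes of the set, *Nrxn2* and *Dag1* were most alike, at r = 0.99 over the 18 libraries and 0.95 over the 12 IP libraries, while *Nrxn3* reached at most 0.15 with any other gene of the set in the IP libraries.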

How the data were processed

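Per the labels and the methods of the study, the authors used Trimmomatic for trimming and STAR for alignment to GRCm38, and deposited raw counts of read pairs per gene and library, unstranded and for each strand, neither normalized nor pooled. Stranded, rRNA-depleted total RNA libraries were sequenced. Pairs mapped to several places (3.6% on average) and pairs on more than 1 gene (5.5%) are not in these counts. Here the unstranded counts were TMM-scaled to CPM. RPKM is CPM per kb of the longest GENCODE M21 transcript.

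Genes with 10 or more pairs in total were tested with edgeR 4.0.16 (estimateDisp, robust glmQLFit, glmQLFTest) in R 4.3.3 and adjusted over all 24495 by Benjamini-Hochberg, at a threshold of 0.05. The SE is the absolute log2 fold change over the square root of F. DESeq2 1.42.0 was run beside it. IP vs. input had a treatment term. Ethanol was tested in each fraction, and the difference as an interaction, also with the dish as a block.

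The genes of the set, the partner lists and the markers were chosen with earlier results of these data known. Named beside the set are the 2 strongest changes in each direction of each partner list among genes over 1 CPM, the 2 genes closest to each gene of the set, and cell markers. Some genes of these lists are not reported here and are not in the lists' counts. A few others were named after their values were seen. On simulated counts for ethanol in IP over the 24495 genes, 80% of 100 genes changed by 1.2-fold were recovered. Recovery was 72% for ethanol in input and 57% for the difference in ethanol effect between IP and input. Far fewer genes were changed there than the 21.4% that passed for ethanol in IP, so recovery in the data can differ. Input and IP libraries of a number come from 1 dish (correlation of their deviations 0.02 to 0.15), so the dish is a block by design. Whether a control and an ethanol dish of the same number were handled as a pair is not given in the sources used here. Deviations of such libraries within a fraction correlated at -0.10 to 0.22. 26 gene symbols stored as dates were replaced by those of GENCODE.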

Additional observations from a re-analysis of the deposited data

Results flagged for a closer look

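The ethanol effect on *Nlgn2* differed between IP and input by 0.22 on the log2 scale in the 12 libraries whose dish gave input and IP alike, fitted with a term for each dish (edgeR's quasi-likelihood test, SE 0.037, adjusted p = 9.31e-06). With GC and length trends removed as well it was 0.15 (adjusted p = 0.00684). The same 12 libraries without dish terms gave 0.22 (SE 0.041, adjusted p = 0.00564), and all 18 libraries 0.16 (SE 0.041, adjusted p = 0.675), so the call was made with the 12 libraries and not with the 18. Of the IP libraries, the 12 hold replicates 4 to 6 only. Ethanol raised *Nlgn2* in IP by 0.20 in those and by 0.13 in replicates 1 to 3. The ratio of IP to input was higher in 3 of 3 ethanol dishes than in any control dish for *Nlgn2*, as it also was for *Nlgn1*, *Nrxn2* and *Dag1* and for 6.82% of all genes with reads in these libraries, and the exact permutation test gave p = 0.1, the smallest it can give. No library stood apart from its group in the 12 sets of 6 IP libraries that were examined for the 6 genes, where chance alone would mark about 1 in 20.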

How the results depend on the processing

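Each result was recomputed with other scaling (DESeq2 size factors or total counts), other filters, counts of the gene's own strand, DESeq2, a test against a fold change of 1.2, replicate blocks, GC and length trends removed, part of the libraries and without each library in turn. Over these alternatives, called log2 fold changes of the 6 genes kept direction and call in 296 cases and lost the call in 11, of which 8 were against a fold change of 1.2 and 3 were *Nlgn3* for ethanol in IP. Values not called kept their direction in 225 cases, changed sign without a call in 23 (*Nrxn3*, *Nlgn1*, *Nlgn2* and *Nlgn3*, between -0.11 and 0.12) and gained a call in 3, all *Nlgn2* for the difference between fractions. Against a fold change of 1.2, 4936 genes passed in IP vs. input, 95 for ethanol in IP and 55 in input, with 0 of the 6 genes under ethanol in either fraction and, among the partner lists, 33 genes in IP vs. input (74 in the main test), 1 for ethanol in IP (42) and 1 in input (25). IP replicates 1 to 3 alone gave 2995 genes and 22 of the partner lists, a fit with fewer libraries. Leaving out 1 library at a time gave 4616 to 5244 genes for ethanol in IP and 2861 to 3164 in input, and 34 to 43 and 18 to 22 of the partner lists. For the difference between fractions, DESeq2 called 2 genes, leaving out 1 library gave 0 to 1, and the dish as a replicate block gave 102, or 37 with GC and length trends removed, and its 12 libraries without the block 13, each with 1 of the 6 genes, *Nlgn2*. A replicate block on the number shared by control and ethanol dishes gave 5782 genes for ethanol in IP and 3829 in input. No block changed the call of a gene of the set against the same libraries without it. Per kb of all exons, RPKM over the 18 libraries was 4.84 for *Nrxn2* and 0.209 for *Nrxn3*, and per kb of unshared exon bases 5.17 and 0.216, with 1.24 for *Nlgn3*. Low counts limit *Nrxn3* and *Nlgn3*, whose libraries differ most.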
